A study of Arabidopsis thaliana with 111 samples.

Results

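The 3 expansin-like A genes of Arabidopsis thaliana, EXLA1 (AT3G45970), EXLA2 (AT4G38400) and EXLA3 (AT3G45960), were followed through seed germination. They were found by locus name, and all 3 were among the 21313 loci measured. They were chosen by their own measured log2 differences between seeds with ruptured and with intact testa at 25 h, so the values at 25 h are described without a test. Expression was measured with Affymetrix arrays as log2 values in accession Columbia-0 (Col-0, N60000), sown on 0.7% water agarose at 22 °C in continuous light. The seed parts were the micropylar and chalazal endosperm in 1 sample (MCE), the remaining endosperm (PE), the radicle with the embryonic axis (RAD), the cotyledons (COT) and whole dry seed. For MCE and RAD there were 11 stages, namely 1, 3, 7, 12, 16 and 20 h from sowing, 25 h in seeds with intact and in seeds with ruptured testa, 31 h, and 38 h in seeds with intact and in seeds with ruptured endosperm. For PE the stages were 3 and 16 h, and for COT 3, 16 and 31 h. The 28 groups held 4 samples each, except PE at 3 h with 3, and no genotype or treatment other than time and seed part differed between them. The labels give no rupture status at 31 h and do not say whether replicates came from separate seed batches, so p-values reflect only how these samples vary, which may be technical.

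Expansins are plant cell wall proteins that loosen the wall at low pH without cutting its polymers, and alpha-expansins are the best known of them in growing tissue. The expansin-like A proteins share the expansins' domain layout, but a wall-loosening activity has not been established for them. In Arabidopsis seeds the dead testa breaks before the living endosperm beneath it, and the endosperm at the micropylar end, over the radicle tip, is the layer through which the radicle emerges. Walls of this layer are known to be weakened before emergence.

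The parts were checked against defining genes. EPR1, an extensin-like gene of the micropylar endosperm, was higher in MCE than in RAD by at least 1 on the log2 scale at 11 of 11 stages, with differences of 6.10 to 9.05. Of the other endosperm genes EXPA2, an alpha-expansin, passed that limit at 9 of 11 stages. MAN7, a mannanase, passed it at 7 and was lower in MCE at 38 h, by -0.44 with intact and -1.08 with ruptured endosperm. Of the radicle genes, PIN2 and PLT2 were higher in RAD by at least 1 at 10 of 11 stages, PLT1 and WER at 9 and SCR at 4. The samples were of bulk tissue, so fewer cells of a type and less RNA per cell cannot be told apart, and MCE holds both ends of the seed. In the labels, 6 arrays were marked as redone for quality control, and 3 arrays of MCE, replicate 2 at 16 h, at 20 h and at 25 h with intact testa, had a source name of another stage than their title. Of the redone arrays, replicate 1 of MCE at 25 h with intact testa stood farthest apart in EXLA1 and in the touch genes described further on. The EXLA1, touch gene and EXLA1-like gene differences at 25 h that rest on that array are given with and without it. Replicate 2 of MCE at 12 h, also redone, was the lowest of its group in both. There EXLA1 was at 5.98 against 6.93 to 7.62, and the mean over the touch genes at 5.74 against 7.10 to 7.63. In MCE at 31 h the mean over the touch genes was 7.46 in replicate 4, also redone, against 8.66 to 9.34.

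The mean level of each of the 3 genes was highest in MCE of seeds with ruptured testa at 25 h. EXLA1 was above the dim limit of 4.03 (25% of genes have their highest group mean below it) in every array. Its group means spanned 4.59 on the log2 scale, a 24.1-fold range, with the lowest in COT at 16 h. EXLA2 spanned 4.30 as measured, with 13 of 28 group means below that limit, so its range was at least 14.95-fold when low levels are set to the limit. EXLA3 spanned 2.63 as measured, with 26 of its 28 group means and 102 of its arrays below the limit, and its range was at least 2.83-fold by the same rule. Thus EXLA1 was measurable at every stage, EXLA2 mainly at the later ones, and EXLA3 was above the limit on average only in MCE with ruptured testa at 25 h and in MCE at 31 h. Of the 10946 loci whose group means spanned at least 2, 1.96% had their highest mean in MCE with ruptured testa. The 3 genes were chosen by their differences at 25 h, which favours a highest mean there, so nothing is read from that share.

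**Figure D1:**
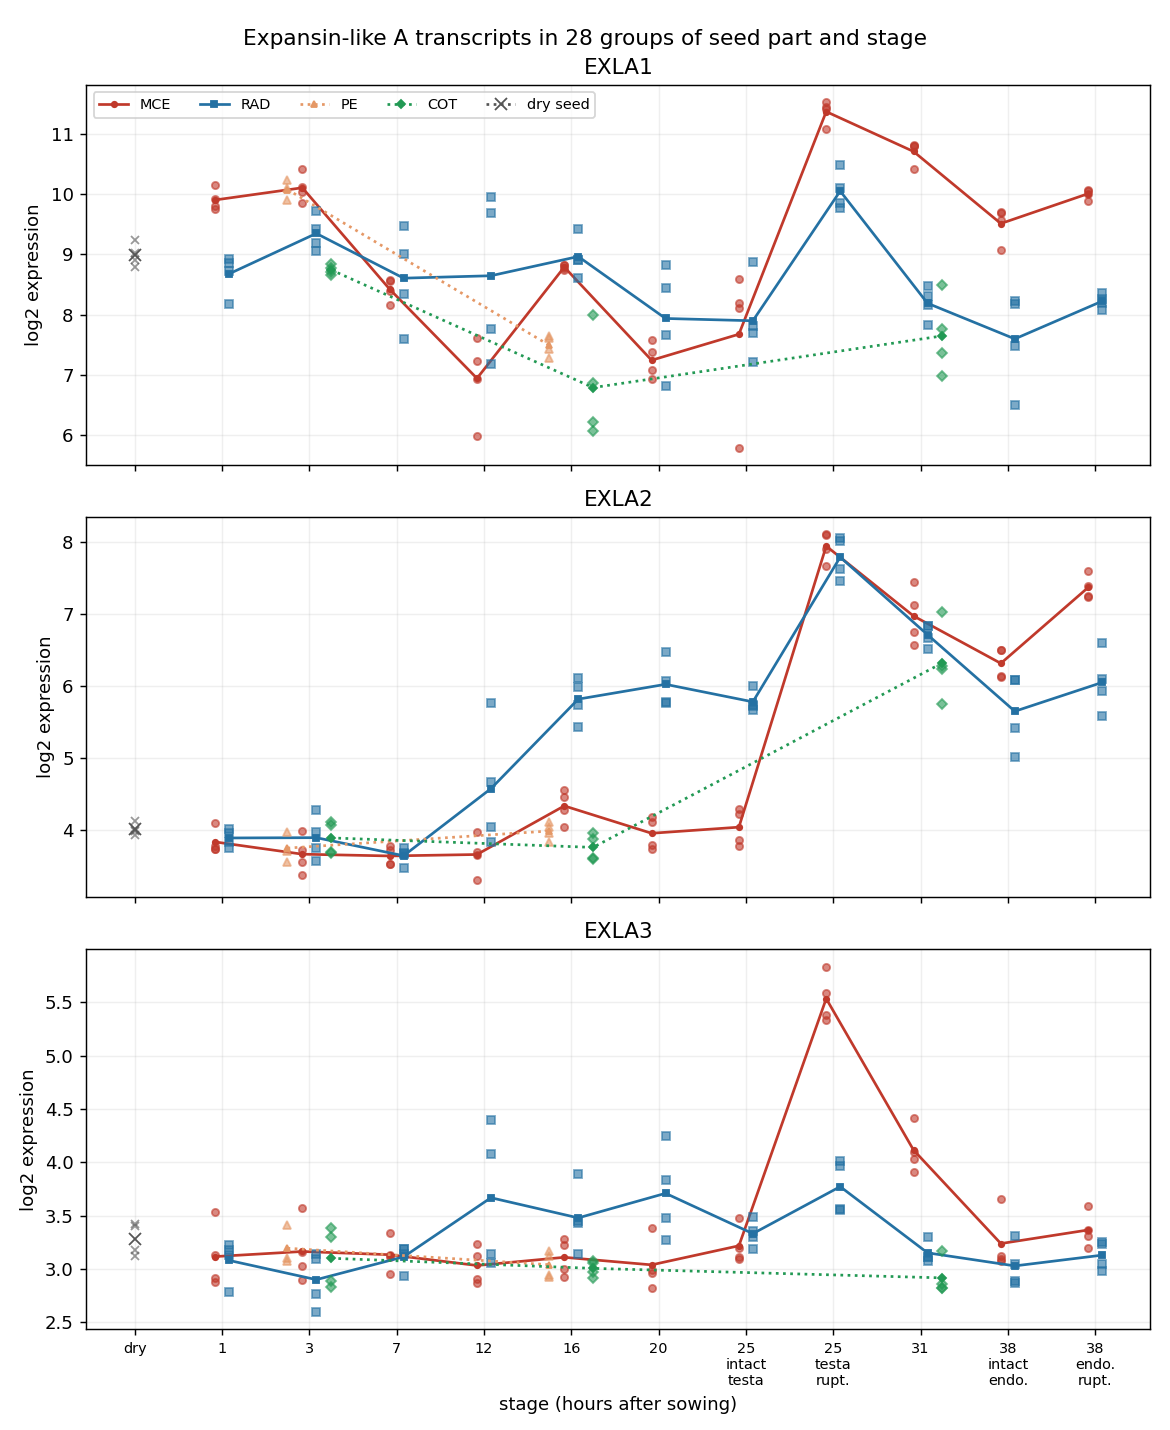
Log2 expression (vertical axis) of EXLA1, EXLA2 and EXLA3 in single arrays (points) with group means (lines) over the stages in hours after sowing (horizontal axis), for MCE, RAD, PE, COT and dry seed. The highest mean of each gene is in MCE with ruptured testa at 25 h, and EXLA2 is higher in RAD than in MCE at 16 and 20 h.

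Ranked by group mean, EXLA1 was highest in MCE with ruptured testa (11.37 ± 0.20, SD, n = 4), followed by MCE at 31 h (10.71 ± 0.20, n = 4). Then came MCE at 3 h (10.11), PE at 3 h (10.08), RAD with ruptured testa (10.05), MCE with ruptured endosperm at 38 h (10.01) and MCE at 1 h (9.90), and each neighbouring pair among these 5 groups overlapped. The samples of neighbouring groups overlapped in 24 of 27 neighbour pairs for EXLA1. The exceptions were MCE with ruptured testa against MCE at 31 h, MCE at 31 h against MCE at 3 h, and MCE at 1 h against MCE with intact endosperm at 38 h (9.51). For EXLA2 all 27 neighbour pairs overlapped, with MCE with ruptured testa at 7.94 ± 0.21, RAD with ruptured testa at 7.78 ± 0.29 and MCE with ruptured endosperm at 7.36 ± 0.17 (SD, n = 4 each) in the lead. For EXLA3 only the highest group, MCE with ruptured testa at 5.53 ± 0.23, was separate from its neighbour, MCE at 31 h with 4.11 ± 0.22 (SD, n = 4 each).

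At testa rupture in MCE, the EXLA1 level was 11.46, 11.09, 11.53 and 11.42 in seeds with ruptured testa, against 5.79, 8.20, 8.59 and 8.12 in seeds with intact testa. Every sample with ruptured testa was above every sample with intact testa, and the 5.79 came from the redone array. The means were 11.37 ± 0.20 with and 7.67 ± 1.27 without rupture (SD, n = 4 each), a difference of 3.70 or 13.0-fold, which was 3.07 without the redone array. EXLA2 was at 7.66, 7.89, 8.10 and 8.09 with ruptured testa, against 3.77, 4.22, 4.29 and 3.86 with intact testa, a difference of 3.90 or 14.9-fold. With intact testa EXLA2 lay about the dim limit in all 4 samples. EXLA3 was at 5.38, 5.59, 5.33 and 5.83 with ruptured testa, against 3.19, 3.09, 3.47 and 3.11 with intact testa, a difference of 2.32 as measured. Since all 4 intact samples of EXLA3 lay under the dim limit, only a fold of at least 2.83, taken against that limit, can be given. All 3 genes were thus separate between the seed populations, as 8.22% of all genes were in the direction of higher values with ruptured testa. This contrast chose the genes, so nothing is read from that count.

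In RAD the same 2 populations also differed in all 3 genes, by less. EXLA1 was at 9.85, 9.77, 10.48 and 10.11 with ruptured testa, against 8.87, 7.69, 7.81 and 7.21 with intact testa, a difference of 2.16 or 4.46-fold. EXLA2 was at 7.63, 7.45, 8.05 and 8.01 with ruptured testa, against 5.996, 5.74, 5.65 and 5.71 with intact testa, a difference of 2.01 or 4.02-fold. The level of EXLA2 with ruptured testa was close in both parts, and it was the level with intact testa that was lower in MCE than in RAD. EXLA3 was at 3.56, 4.01, 3.97 and 3.55 with ruptured testa, against 3.49, 3.30, 3.35 and 3.19 with intact testa, a difference of 0.44 within the dim range. The samples of the 2 populations did not overlap for any of the 3 genes, as for 6.7% of all genes. As in MCE, nothing is read from that count. The increase in MCE exceeded that in RAD by 1.54 for EXLA1, 1.89 for EXLA2 and 1.88 for EXLA3. Of the 4 group means behind the EXLA3 value only that of MCE with ruptured testa was above the dim limit. For EXLA1 that excess was 0.92 without the redone array of MCE, so its size rests on replicate 1 of MCE with intact testa.

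**Figure D2:**
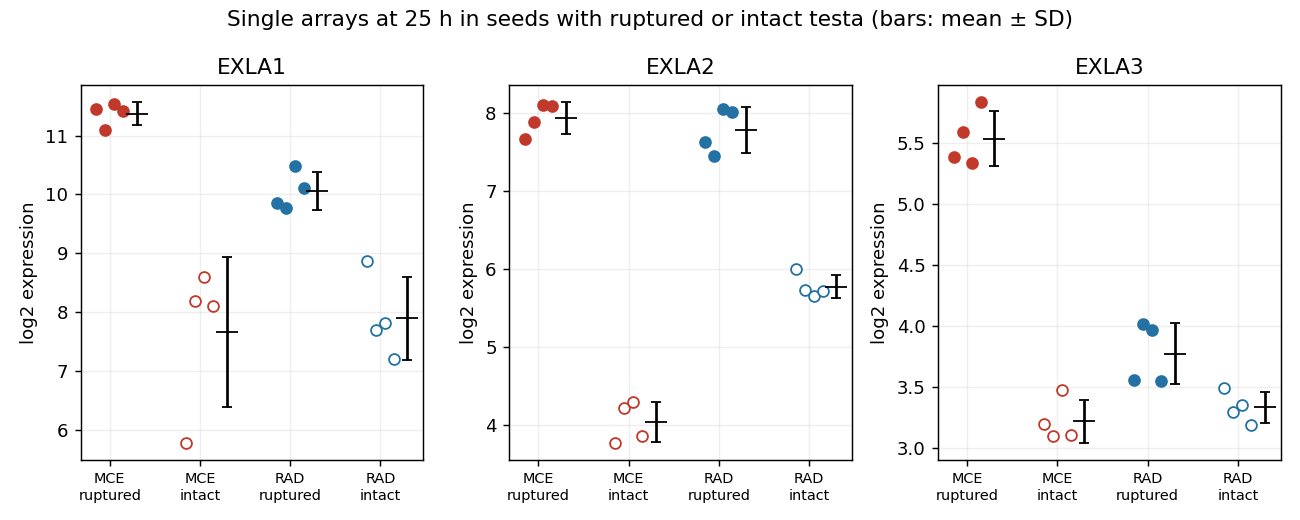
Log2 expression (vertical axis) of each gene in the 4 arrays of MCE and of RAD at 25 h with ruptured testa (filled points) and with intact testa (open points), with mean and SD as bars. The populations do not overlap in any panel, and the open EXLA1 point of MCE at 5.79 is the redone array.

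Between 20 h and the intact seeds of 25 h the levels moved little in RAD and, for EXLA2 and EXLA3, in MCE. In MCE the difference, 25 h intact minus 20 h, was 0.43 for EXLA1, 0.08 for EXLA2 and 0.18 for EXLA3, and the samples overlapped for all 3. Without the redone array the EXLA1 difference was 1.06 and the overlap ended, with 8.12 to 8.59 at 25 h against 6.93 to 7.58 at 20 h. In RAD the difference was -0.04 for EXLA1, -0.24 for EXLA2 and -0.38 for EXLA3, with overlap in each. From ruptured seeds at 25 h to 31 h all 3 genes were lower in both parts, with no overlap. The differences, 31 h minus 25 h with ruptured testa, were -0.66, -0.97 and -1.42 in MCE and -1.87, -1.08 and -0.62 in RAD for EXLA1, EXLA2 and EXLA3 in that order. Of all genes, 11% in MCE and 7.12% in RAD were lower without overlap in these comparisons. Values with ruptured testa at 25 h chose the 3 genes, which favours a lower level at 31 h. Nothing is therefore read from these shares.

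The 31 h samples, set against 20 h, gave a comparison of later with earlier seeds that used no 25 h array. Since 31 h is the stage next after the one that chose the genes, a rise by then is not independent of that choice. In this and the following comparisons limma was fitted over all genes, and the threshold for a call was an adjusted p (Benjamini-Hochberg, over all genes) under 0.05 together with a log2 difference of 1 or more in size, the fold minimum. In MCE all 3 genes rose, where 14.8% of all genes were called in either direction. EXLA1 was at 10.80, 10.41, 10.83 and 10.81 at 31 h, against 7.38, 7.58, 6.93 and 7.07 at 20 h, a difference of 3.47 ± 0.38 (SE, limma adjusted p = 2.52e-13). EXLA2 was at 6.75, 6.57, 7.11 and 7.44 at 31 h, against 3.73, 4.11, 4.17 and 3.79 at 20 h, a difference of 3.02 ± 0.21 (limma adjusted p = 5.05e-23). EXLA3 was at 3.91, 4.10, 4.03 and 4.42 at 31 h, against 2.82, 3.38, 2.99 and 2.97 at 20 h, a difference of 1.08 ± 0.17 (limma adjusted p = 9.54e-08). None of the 3 genes overlapped between these stages, as 17.9% of all genes were higher without overlap. Both EXLA2 and EXLA3 were under the dim limit on average at 20 h, and against that limit the 31 h means were higher by 2.93 for EXLA2 and 0.08 for EXLA3. The EXLA3 call ended without replicate 4 at 31 h, a redone array, where the difference of 0.98 fell short of the fold minimum. In the same MCE samples the mean over 5 seed coat genes was 5.19 to 5.39 at 31 h, against 4.33 to 4.49 at 20 h, with MUM2, a mucilage beta-galactosidase of the seed coat, at 7.72 against 3.75. The mean over the 3 endosperm genes was 11.89 to 12.19 at 31 h, against 12.89 to 12.94 at 20 h, with MAN7 lower by -2.22 (limma adjusted p = 2.93e-16). MUM2 was the one called of the 5 seed coat genes and MAN7 the one called of the 3 endosperm genes, both singled out after their values were seen. In RAD MUM2 was higher at 31 h too, at 5.23 against 3.33 at 20 h. In MCE the other seed coat genes were TT10 at 3.06 against 3.04 and BAN at 3.46 against 3.48. TT12 was at 4.70 against 4.87 and MUM4 at 7.40 against 6.91. Over the 5 radicle genes the mean was 4.44 to 4.59 against 4.65 to 4.93, and over the 3 cotyledon genes 5.11 to 5.45 against 4.91 to 4.98. Their part in the rise of the expansin-like A genes was not tested.

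In RAD none of the 3 genes was called between 20 and 31 h, where 6.92% of all genes were. EXLA1 was at 8.19 ± 0.27 at 31 h and 7.93 ± 0.89 at 20 h (SD, n = 4 each), a difference of 0.25 (limma adjusted p = 0.673). EXLA2 was higher at 31 h by 0.69 (limma adjusted p = 0.00737) and EXLA3 lower by -0.56 (limma adjusted p = 0.00733), both under the fold minimum. The change in MCE exceeded that in RAD in all 3 genes, by 3.22 ± 0.54 for EXLA1, 2.33 ± 0.30 for EXLA2 and 1.63 ± 0.25 for EXLA3 (SE, limma adjusted p = 5.43e-07, 3.33e-10 and 2.71e-08), where 14.1% of all genes were called. For EXLA3 only the mean of MCE at 31 h among the 4 was above the dim limit. At 31 h EXLA1 in RAD thus did not differ beyond the threshold from its 20 h level, while in MCE it was 3.47 above the 20 h level.

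**Figure D3:**
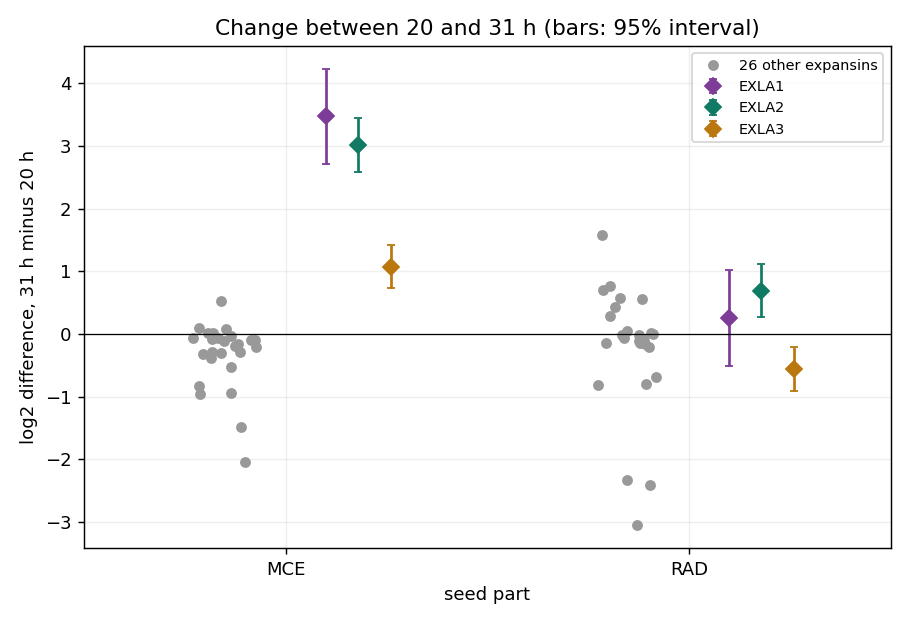
Log2 difference (vertical axis), 31 h minus 20 h, in MCE and RAD (horizontal axis) for EXLA1, EXLA2 and EXLA3 (diamonds with 95% intervals) and for 26 other expansins (grey points). In MCE the 3 expansin-like A genes lie at 1.08 to 3.47, above all grey points. The 3 genes were chosen by their differences at 25 h and the grey ones were not, so nothing is read from this order.

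EXLA1 transcripts were already present in dry seed, at 9.03, 9.23, 8.78 and 8.91. MCE at 1 h was at 9.90 ± 0.17 and RAD at 1 h at 8.68 ± 0.34, against 8.99 ± 0.19 in dry seed (SD, n = 4 each), and neither difference was called (0.92 for MCE, limma adjusted p = 0.0771, and -0.31 for RAD, limma adjusted p = 0.633). Called changes took in 3.35% of all genes for MCE and 3.21% for RAD. EXLA2 and EXLA3 did not differ beyond the threshold from dry seed either, at 4.01 ± 0.08 and 3.28 ± 0.15 there. Only whole dry seeds were sampled, so the parts of the dry seed have no level of their own.

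In MCE the level of EXLA1 then moved down, up and down again before 25 h. Between 3 and 7 h it fell to 8.42 ± 0.20, against 10.11 ± 0.23 at 3 h, a difference of -1.69 ± 0.38 (limma adjusted p = 0.000114). At 12 h the samples were at 7.23, 5.98, 6.93 and 7.62, all below those of 7 h, a difference of -1.48 ± 0.38 (limma adjusted p = 0.000822). At 16 h the level rose to 8.79 ± 0.04, 1.85 ± 0.38 above 12 h (limma adjusted p = 6.1e-05), and at 20 h it fell to 7.24 ± 0.29, a difference of -1.55 ± 0.38 (limma adjusted p = 0.000766). In none of these 4 steps did the samples overlap, as in 16.5%, 16.4%, 11.4% and 14.1% of all genes in the same direction. The shares of all genes called were 13.7%, 10%, 5.15% and 5.41% in the order of the steps. The lowest sample at 12 h, replicate 2, was a redone array, and the calls at 12 h stood without it. From 31 h to 38 h with intact endosperm EXLA1 fell by 1.20 (limma adjusted p = 0.0107), to 9.51 ± 0.30, where 5.82% of all genes were called. The step from 1 to 3 h in MCE was not called for any of the 3 genes, as against 3% of all genes.

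In RAD none of the 8 steps from one stage to the next, with 31 h set against 20 h, was called for EXLA1 or EXLA3, and 2 were for EXLA2. The shares of all genes called in these steps were 1.2%, 13.8%, 10.5%, 3.92%, 1.07%, 6.92%, 7.03% and 1.91%. EXLA1 samples there were widely spread at several stages, with 9.96, 9.69, 7.76 and 7.17 at 12 h and 8.22, 7.48, 8.18 and 6.50 at 38 h with intact endosperm. Replicate 4 held the lowest EXLA1 sample of RAD at 1, 7, 12, 16, 20 and 31 h and in intact seeds at 25 and 38 h. At 3 h and in ruptured seeds at 25 and 38 h it did not. The fit takes no account of such an offset, which widens the SE, so uncalled EXLA1 steps in RAD are not shown to be absent. At 12 h replicates 1 and 2 were high in all 3 genes. EXLA2 was at 5.76 and 4.66 in these replicates and at 4.04 and 3.83 in replicates 3 and 4, and EXLA3 at 4.39 and 4.08 against 3.14 and 3.06. Without replicates 1 and 2 at 12 h, a choice made after these values were seen, EXLA1 in RAD fell between 7 and 12 h by 1.14 (limma adjusted p = 0.027) and rose between 12 and 16 h by 1.497 (limma adjusted p = 0.00588). With all 4 replicates these differences were 0.04 (limma adjusted p = 0.949) and 0.32 (limma adjusted p = 0.691).

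EXLA2 came up first in RAD. At 7 h it was at 3.64 ± 0.13 in MCE and 3.64 ± 0.11 in RAD (SD, n = 4 each). RAD at 16 h was at 5.43, 6.11, 5.74 and 5.98, a rise of 1.24 ± 0.21 over 12 h (limma adjusted p = 2e-06), where 3.92% of all genes were called, and at 20 h it was at 6.02 ± 0.33. The highest sample of 12 h lay within the 16 h samples, and without replicate 4 of 12 h the rise of 0.99 fell short of the fold minimum. The earlier step of 0.93 between 7 and 12 h (limma adjusted p = 0.000154) was under the fold minimum too, where 10.5% of all genes were called. In MCE the level at 16 h, 4.33 ± 0.22, was 0.67 above 12 h (limma adjusted p = 0.0122), and at 20 h it was 3.95 ± 0.22, so that EXLA2 stayed near the dim limit in MCE until testa rupture. EXLA2 in RAD fell by 1.06 between 31 h and 38 h with intact endosperm (limma adjusted p = 2.33e-05), where 7.03% of all genes were called, and the fall was 0.85 without replicate 4 at 38 h, short of the fold minimum.

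EXLA3 was called in only 1 of the 16 steps in MCE and RAD, the one between 20 and 31 h in MCE, where 14.8% of all genes were called. That call ended without replicate 4 at 31 h, a redone array, and the 31 h mean was only 0.08 above the dim limit. Between 31 h and 38 h with intact endosperm it was lower in MCE by -0.88 (limma adjusted p = 2.3e-05), to 3.24 ± 0.28, under the fold minimum. Differences between levels near 3 are differences within the dim range of the arrays. In RAD its means were between 2.90 at 3 h and 3.77 with ruptured testa at 25 h.

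Between seed parts of one stage the genes took different sides. EXLA1 was higher in MCE than in RAD at 1 h, by 1.23 ± 0.38 (limma adjusted p = 0.00874), with 9.75 to 10.15 in MCE and 8.18 to 8.93 in RAD. At 12 h it was lower in MCE by -1.71 (limma adjusted p = 0.000118), but the samples overlapped, and without replicates 1 and 2 of RAD the difference was -0.53 (limma adjusted p = 0.407). At 31 h it was again higher in MCE, by 2.52 ± 0.38 (limma adjusted p = 8.7e-09), and at 38 h by 1.92 with intact and 1.79 with ruptured endosperm (limma adjusted p = 6.59e-06 and 2.44e-05). In these 3 late comparisons the samples did not overlap, as in 25.6%, 25.6% and 27.1% of all genes. The differences at 3, 7, 16 and 20 h, 0.76, -0.18, -0.17 and -0.69, were not called. Of the 3 genes EXLA1 alone was called higher in MCE at 1 h and at 31 h.

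EXLA2 was lower in MCE than in RAD by -1.48 at 16 h and by -2.07 at 20 h (limma adjusted p = 4.27e-09 and 1.07e-14), where 14.8% and 20.2% of all genes were called. EXLA2 samples were at 4.04 to 4.55 in MCE and 5.43 to 6.11 in RAD at 16 h. At 20 h they were at 3.73 to 4.17 in MCE and 5.76 to 6.47 in RAD. In intact seeds at 25 h EXLA2 was lower in MCE by -1.74, without overlap, as 25% of all genes were there. In ruptured seeds the difference was 0.15 and the samples overlapped. At 31 h the difference was 0.26 (limma adjusted p = 0.327). At 38 h EXLA2 was higher in MCE by 0.67 with intact endosperm (limma adjusted p = 0.0049), under the fold minimum, and by 1.32 ± 0.21 with ruptured endosperm (limma adjusted p = 5.6e-08). The sign of the difference between the parts thus turned between 20 and 38 h. EXLA3 was not called at any of the 9 stages, and its largest differences were 0.96 at 31 h (limma adjusted p = 7.48e-07), -0.67 at 20 h (limma adjusted p = 0.000568) and -0.64 at 12 h (limma adjusted p = 0.00165). In ruptured seeds at 25 h EXLA1 was higher in MCE by 1.32 and EXLA3 by 1.76, without overlap, as 25.3% of all genes were. Values at 25 h chose the genes, so nothing is read from the shares at that stage. The shares of all genes called between MCE and RAD grew over the stages, at 5.48%, 6.65%, 8.72%, 11.2%, 14.8% and 20.2% from 1 to 20 h, 30.4% at 31 h, and 31.2% and 31.6% at 38 h with intact and ruptured endosperm. A late difference between the parts is common among all genes.

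**Figure D4:**
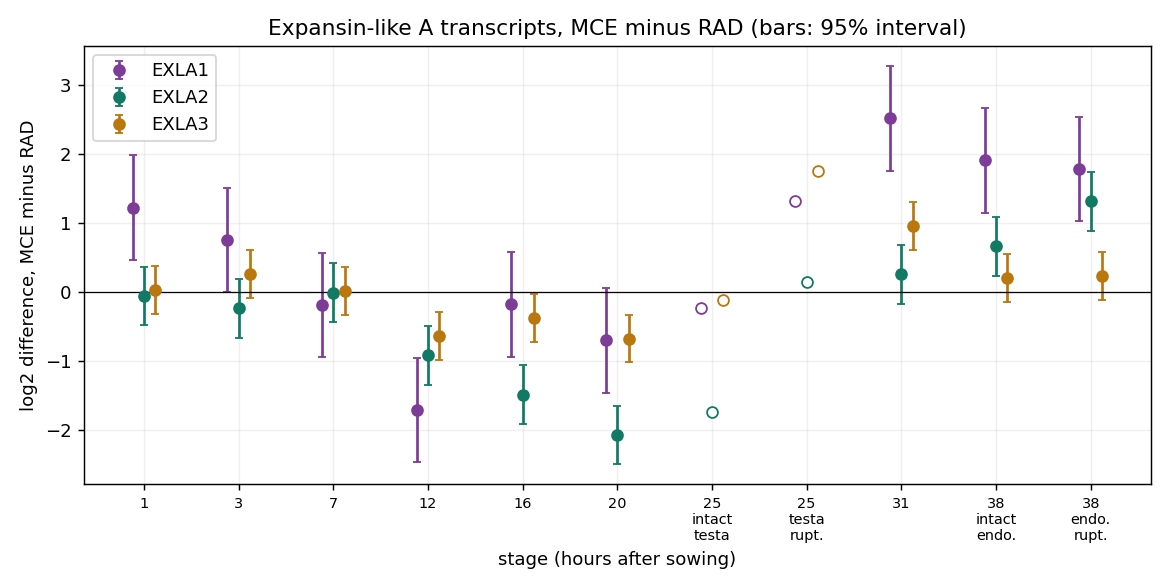
Log2 difference between MCE and RAD (vertical axis) of each gene at each stage (horizontal axis), with 95% intervals, and as open points without interval at 25 h, where nothing was tested. EXLA2 lies at -1.48 at 16 h and -2.07 at 20 h and at 1.32 with ruptured endosperm, and EXLA1 is at 2.52 at 31 h.

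Rupture of the endosperm, through which the radicle emerges, was measured at 38 h. In MCE EXLA2 was at 7.25, 7.38, 7.23 and 7.59 with ruptured endosperm, against 6.49, 6.13, 6.50 and 6.12 with intact endosperm, a rise of 1.05 ± 0.21 (limma adjusted p = 0.000205), where 1.32% of all genes were called. The samples did not overlap, but the share of all genes without overlap is not given here. Without replicate 2 or 4 with intact or replicate 4 with ruptured endosperm the rise was 0.98 to 0.99, short of the fold minimum, with adjusted p of 0.00193 to 0.00206. EXLA1 was higher by 0.50 (limma adjusted p = 0.591) and EXLA3 by 0.13 (limma adjusted p = 0.837). In RAD none of the 3 genes was called, as against 1.91% of all genes, with 0.63 for EXLA1, 0.40 for EXLA2 and 0.10 for EXLA3. The changes in the 2 parts did not differ beyond the threshold for any of the 3 genes, where 1.98% of all genes were called, so the EXLA2 rise was not shown to be particular to MCE.

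In the remaining endosperm EXLA1 was at 10.23, 9.90 and 10.11 at 3 h, a difference of -0.03 from MCE (limma adjusted p = 0.996), where 0.305% of all genes were called. At 16 h PE was at 7.28, 7.43, 7.64 and 7.61, against 8.74, 8.78, 8.82 and 8.83 in MCE, a difference of -1.30 ± 0.38 (limma adjusted p = 0.0204), where 1.11% of all genes were called. The samples did not overlap, though the share of all genes without overlap is not given here. The limma adjusted p was 0.0702 without replicate 1 and 0.0531 without replicate 2 of PE. Within PE EXLA1 fell by 2.59 between 3 and 16 h (limma adjusted p = 3.98e-08), where 29.6% of all genes were called. EXLA2 and EXLA3 were not called in PE, where they stayed at 3.74 to 3.98 and at 3.04 to 3.19.

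In the cotyledons EXLA1 fell to 6.21, 7.997, 6.87 and 6.06 at 16 h, against 8.71, 8.77, 8.65 and 8.84 at 3 h, a difference of -1.96 ± 0.38 (limma adjusted p = 4.46e-06), where 30.8% of all genes were called. At 16 h both EXLA1 and EXLA2 were lower in COT than in RAD, by -2.18 and -2.06 (limma adjusted p = 1.05e-06 and 2.98e-14), where 11.2% of all genes were called. At 31 h EXLA2 was at 5.74, 7.02, 6.23 and 6.27 in COT, against 3.60, 3.96, 3.59 and 3.87 at 16 h, a rise of 2.56 ± 0.21 (limma adjusted p = 8.09e-19), where 11.2% of all genes were called. EXLA2 thus came up in the cotyledons between 16 and 31 h, and at 31 h it did not differ beyond the threshold from RAD (-0.39, limma adjusted p = 0.146), where 15.4% of all genes were called. None of the 3 genes was called between COT and RAD at 3 h, as against 4.71% of all genes. EXLA3 stayed at 2.92 to 3.10 in COT.

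The other expansins were counted beside the members, as 26 measured of 32 listed genes of the alpha, beta and expansin-like B families. At testa rupture in MCE none of the 26 was called in either direction, with a median difference of -0.09 against -0.04 over all genes, where 3.37% of all genes were called. In RAD 1 rose and 3 fell, where 2.02% of all genes were called. EXPA6 rose by 1.37 (limma adjusted p = 1.83e-10), and EXPA10 fell by 1.55, EXPA1 by 1.34 and EXPA15 by 1.23 (limma adjusted p = 4.68e-09, 0.00428 and 5.22e-06), all of them alpha-expansins. Between 20 and 31 h in MCE 2 of 26 fell, EXPA3 by 2.05 and EXPA15 by 1.48, and none rose, where 14.8% of all genes were called. The 2 were 4 with array weights or without the redone arrays. Of the expansin-like A genes 3 of 3 rose, of which EXLA3 was no longer called without the redone array at 31 h. The 3 were chosen by their differences at 25 h and the 26 were not, so nothing is read from setting these counts side by side. The median over the 26 was -0.17, against -0.04 over all genes. Over the same hours in RAD EXPA6 rose by 1.59, while EXPA10 fell by 3.05, EXPA15 by 2.41 and EXPA1 by 2.33. EXPA2, an alpha-expansin of the endosperm in germination and among the marker genes used here, was at 14.14 in MCE with ruptured testa and 14.36 with intact testa. Across the 28 group means the correlation of these 26 genes with EXLA1 was between -0.48 and 0.31, with EXLA2 between -0.70 and 0.71 and with EXLA3 between -0.37 and 0.39.

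Genes known to respond to touch and wounding were followed as a list of 16, all measured. At testa rupture in MCE 4 of the 16 rose and none fell, with a median of 0.60 against -0.04 over all genes, where 3.37% of all genes were called in either direction. Without the redone array of MCE with intact testa the median was -0.02, against -0.04 over all genes. The 4 genes were TCH3, a calmodulin-like protein, by 3.30, TCH4, a xyloglucan endotransglucosylase/hydrolase, by 3.03, and the transcription factors WRKY33 by 1.53 and ERF5 by 1.35. Without that array the differences were 2.58 for TCH3, 2.27 for TCH4, 0.62 for WRKY33 and 0.36 for ERF5. ERF5 and HTB9, given further on, were named after their values were seen. In RAD TCH3 rose by 2.03 and no other gene of the list was called, where 2.02% of all genes were. Without the redone arrays 2 rather than 4 of the 16 rose in MCE. The mean over the list was 8.99 to 9.34 in MCE with ruptured testa, against 6.54, 8.90, 9.07 and 8.64 with intact testa, and it was 8.60 to 8.72 in RAD with ruptured testa, against 7.88 to 8.28 with intact testa. The part of the touch genes in the differences of the expansin-like A genes was not tested. Between 20 and 31 h, 4 of the 16 rose in MCE and 7 in RAD, where 14.8% and 6.92% of all genes were called in either direction. The 7 were 4 without replicate 2 of RAD at 31 h and the 4 were 2 without replicate 2 of MCE at 31 h. In RAD, over those hours, no expansin-like A gene was called. Means over marker lists of other tissues lay close in MCE of the 2 populations. Over 5 seed coat genes they were 4.71 to 4.92 with ruptured and 4.39 to 4.85 with intact testa. Among these MUM2 was at 5.28 with ruptured and 4.37 with intact testa, and MUM4 at 7.50 and 7.15. TT10 was at 3.09 and 3.08, BAN at 3.46 and 3.66 and TT12 at 4.71 and 5.13, in the same order. Over 5 radicle genes the means were 4.70 to 4.91 with ruptured and 4.63 to 4.93 with intact testa. The 3 endosperm genes averaged 12.54 to 12.76 with ruptured and 12.91 to 13.22 with intact testa. Over the 3 cotyledon genes the mean was 5.10 to 5.28 with ruptured and 4.94 to 5.25 with intact testa.

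Within groups, EXLA1 and the touch genes were set against each other array by array. Across all arrays the deviations of EXLA1 and of the touch list mean from their group means correlated with r = 0.63 (Spearman's rho 0.57), a value that 1.11% of all genes reached. Without the 2 arrays farthest from the median of the touch list deviations r was 0.53. Without the groups RAD at 12 h and MCE with intact testa at 25 h, each of which held arrays that lay apart, r was 0.45 for EXLA1, 0.01 for EXLA2 and 0.04 for EXLA3. With all arrays r was 0.21 (rho 0.23) for EXLA2 and 0.18 (rho 0.16) for EXLA3. Within the 44 arrays of RAD r was 0.69, 0.60 and 0.53 for EXLA1, EXLA2 and EXLA3, and 0.62, 0.43 and 0.33 without the 2 farthest arrays. Within the 44 of MCE it was 0.74, -0.09 and 0.00, and 0.47, -0.16 and 0.02 without the 2 farthest. The coefficients are descriptions, since arrays of a group share its stage. Over the group means, rather than within groups, the order of the members was another. There the single touch genes had r of -0.26 to 0.37 with EXLA1 (median 0.02). With EXLA2 their r was 0.23 to 0.84 (median 0.62), and with EXLA3 0.05 to 0.41 (median 0.29). Those means include the groups at 25 h that chose the members. In 5 of the 6 redone arrays the touch list mean was the lowest of its group. EXLA1 was the lowest of its group in 2 of the 6, MCE at 12 h and MCE with intact testa at 25 h, EXLA2 in 3 and EXLA3 in 0. In RAD at 12 h the list mean was 8.74 and 8.43 in replicates 1 and 2, which were also the high ones in all 3 expansin-like A genes, and 7.44 and 7.68 in replicates 3 and 4.

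**Figure D5:**
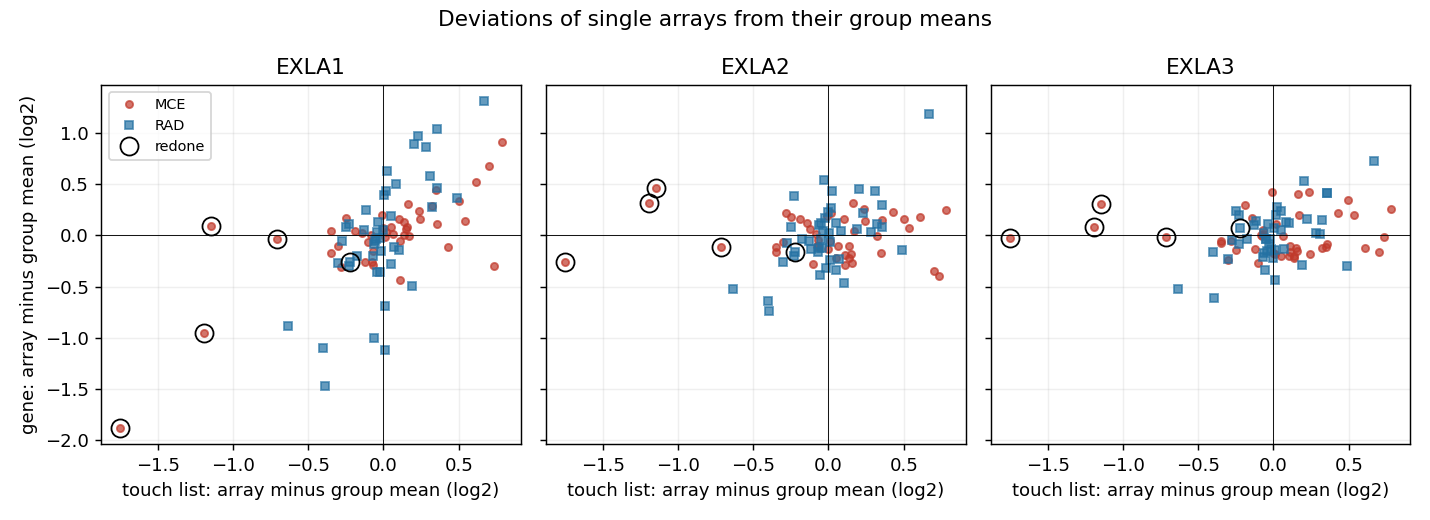
Deviation of each gene (vertical axis) and of the mean over 16 touch genes (horizontal axis) from the group mean, on the log2 scale, for the arrays of MCE and RAD, with redone arrays circled. EXLA1 has r = 0.74 with the list in MCE and 0.69 in RAD, which are 0.47 and 0.62 without the 2 farthest arrays, and the array at the lower left is replicate 1 of MCE with intact testa at 25 h.

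Among themselves the 3 genes were only partly alike. Across the 28 group means r was 0.39 between EXLA1 and EXLA2, 0.61 between EXLA1 and EXLA3 and 0.61 between EXLA2 and EXLA3. Over the 24 groups other than 25 h it was 0.18, 0.45 and 0.48. EXLA3 and EXLA1 are neighbouring protein-coding genes on chromosome 3 of the reference table (TAIR10.1), and EXLA2 is on chromosome 4. In that table EXLA1 overlaps its other neighbour, the histone H2B gene HTB9, whose group means did not follow those of EXLA1 (r = -0.04). HTB9 was at 8.67 ± 0.19 in MCE with ruptured and 8.52 ± 0.23 with intact testa (SD, n = 4 each).

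The genes most like each member were taken from the 10946 loci whose group means spanned at least 2, by Pearson's r over the 28 means. Those means include the 25 h groups that chose the members, so differences of the like genes at 25 h are partly built in. For EXLA3 26 of the 28 means lay below the dim limit. For EXLA1 they were AT1G17620 (r = 0.85), the arabinogalactan protein gene AGP2 (0.80) and the RING-H2 finger gene RHA3B (0.78). AT1G17620 was at 9.33 ± 0.18 in MCE with ruptured testa, against 7.86 ± 0.37 with intact testa (SD, n = 4 each), and in RAD at 8.64 ± 0.21 against 7.96 ± 0.13. AGP2 was at 9.85 ± 0.19 in MCE with ruptured testa, against 4.35 ± 0.61 with intact testa, and in RAD at 8.02 ± 0.33 against 5.53 ± 0.52. RHA3B was at 9.39 ± 0.12 in MCE with ruptured testa, against 6.68 ± 0.90 with intact testa, and in RAD at 6.66 ± 0.24 against 6.69 ± 0.15, levels close together where EXLA1 was 2.16 apart. Without the redone array the MCE differences were 1.27 for AT1G17620, 5.21 for AGP2 and 2.27 for RHA3B. For EXLA2 they were the arabinogalactan protein gene AGP18 (0.94), AT4G35320 (0.93) and AT4G02170 (0.92). AGP18 was at 8.94 ± 0.21 in MCE with ruptured testa, against 5.05 ± 0.30 with intact testa, and in RAD at 7.88 ± 0.14 with ruptured and 6.29 ± 0.29 with intact testa. For EXLA3 they were RR17, a type-A response regulator of cytokinin signalling (0.86), AT5G54030 (0.75) and AT2G02700 (0.74). RR17 was at 4.89 ± 0.49 in MCE with ruptured testa, against 2.56 ± 0.13 with intact testa, and in RAD at 2.62 ± 0.15 with ruptured and 2.64 ± 0.13 with intact testa. Neither EXLA1 nor EXLA2 was among the other's nearest genes, at place 3426 for EXLA1 in the order for EXLA2 and place 1089 for EXLA2 in the order for EXLA1. EXLA3 was at place 84 in the order for EXLA1 and at place 1352 in that for EXLA2, while in the order for EXLA3 EXLA2 was at place 20 and EXLA1 at place 21.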

How the data were processed

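The deposited table held log2 expression values, 1 column per array and 1 line per locus, for 21313 loci. Per the submitters' processing notes the authors used RMA and affy, with versions not given; the probe definition, build and filters are not given in the sources used here. RNA was labelled from 100 ng per sample with a 3' kit, per the labels' protocols. Array medians were 4.67 to 5.22, and no arrays were identical. Groups came from titles.

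limma 3.58.1 in R 4.3.3 was fitted to all arrays with 1 mean per group (83 residual degrees of freedom), two-sided, with Benjamini-Hochberg adjustment over all genes within a comparison, in 37 tested comparisons; in 9 more, with 25 h arrays, the members were described only, while the same fit gave the calls of the gene lists and of all genes. Same-numbered samples were compared by the correlation of their deviations, and of 43 comparisons only PE with MCE at 16 h had every pair over 0.1 (0.265 to 0.425), a pairing that rests on the data and not on the labels. The number of arrays limits precision (typical SD 0.193). The procedure was tested on simulated data. Members, lists and tests were chosen with earlier results of these data known. Named genes were the 3 members, up to 3 of each list per direction, and the 3 most like genes. Symbols came from the RefSeq table (21205 loci matched, 108 not). Alternatives were a dim filter (25%, below 4.03), repeated quantile normalization, an added scaling (each array shifted by a trimmed mean of its differences from the average array), an intensity trend, weights per array, a replicate block, only the groups compared, and fits without redone, differently labelled and single arrays.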

Additional observations from a re-analysis of the deposited data

Results flagged for a closer look

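In 81 sets of 4 samples, 3 genes in 27 groups, 5 held a sample whose gap to the nearest other exceeded Dixon's critical value for the ratio of gap to range, and chance gives about 1 in 20. EXLA1 was at 5.79 in replicate 1 of MCE with intact testa at 25 h, against 8.12 to 8.59 in the others. EXLA1 was at 10.41 in replicate 2 of MCE at 31 h, against 10.80 to 10.83. EXLA2 was at 4.09 in replicate 1 of MCE at 1 h, against 3.73 to 3.77. EXLA3 was at 3.66 in replicate 3 of MCE with intact endosperm at 38 h, against 3.08 to 3.12, and at 3.17 in replicate 4 of COT at 31 h, against 2.82 to 2.86. Of these arrays the EXLA1 one of MCE at 25 h was marked as redone in the labels, and the other 4 were not.

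The change from 20 to 31 h differed between MCE and RAD in all 3 genes, by the interaction term of limma. The change in MCE exceeded that in RAD by 3.22 for EXLA1, 2.33 for EXLA2 and 1.63 for EXLA3, where 14.1% of all genes were called. Over the alternatives tried the adjusted p stayed under the threshold in each. For EXLA3 only the mean of MCE at 31 h among the 4 was above the dim limit, by 0.08, so its 1.63 rests on dim signal.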

How the results depend on the processing

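Of the tested member results under alternatives, 1670 kept their direction and their side of the threshold, 76 (over 22 uncalled differences) stayed uncalled but changed sign, 17 moved past it, 12 fell short of it and 1 reversed. Of the described values at 25 h 448 kept their sign, and 8, over 2 differences, turned it while moving by less than the replicate SD. Under the added scaling EXLA2 in RAD, 38 h intact minus 31 h, was -0.95 and no longer called, and EXLA3 in MCE minus RAD at 31 h was 1.05 and called. With array weights EXLA1 in RAD, 20 minus 16 h, was -1.04 and called. Without the redone arrays EXLA3 in MCE, 31 minus 20 h, was 0.98 and no longer called, and EXLA2 in MCE minus RAD at 12 h was -1.02 and called. Without replicates 1 and 2 of RAD at 12 h, chosen after seeing the data, EXLA1 was -1.14 in RAD 12 minus 7 h, 1.497 in RAD 16 minus 12 h and -0.53 in MCE minus RAD at 12 h. The cause of these shifts was not tested.

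Leaving out each sample in turn changed a call in 13 member results, whose ranges were as follows. For EXLA1 they were 0.58 to 1.26 in COT 31 minus 16 h, -1.07 to -0.40 in MCE minus RAD at 20 h, -1.35 to -1.23 in PE minus MCE at 16 h, -1.33 to -0.66 in RAD 20 minus 16 h and -1.03 to -0.41 in RAD 7 minus 3 h. For EXLA2 they were -1.16 to -0.52 in MCE minus RAD at 12 h, 0.98 to 1.12 in MCE at 38 h ruptured minus intact, 0.54 to 1.18 in RAD 12 minus 7 h, 0.99 to 1.64 in RAD 16 minus 12 h and -1.21 to -0.85 in RAD 38 h intact minus 31 h. For EXLA3 they were 0.98 to 1.19 in MCE 31 minus 20 h, 0.86 to 1.03 in MCE minus RAD at 31 h and -1.02 to -0.78 in MCE 38 h intact minus 31 h. The EXLA1 excess of MCE over RAD at testa rupture ranged from 0.92 to 1.85.

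The replicate number as a block changed no call of a tested member result (EXLA2 in MCE, 31 minus 20 h, 3.02, adjusted p = 1.64e-22). The block was shared by all seed parts, so it cannot take out an offset of a replicate in RAD alone. In PE minus MCE at 16 h, where same-numbered samples deviated together, EXLA1 was -1.30 with the block (adjusted p = 0.0126). In the other comparisons not every pair was over 0.1, and the lowest correlation was -0.23. The added scaling shifted the median of all genes by -0.19 in MCE 7 minus 3 h, 0.12 in MCE 31 minus 20 h, -0.11 in RAD 7 minus 3 h, 0.12 in RAD 38 h intact minus 31 h, -0.19 in PE 16 minus 3 h, 0.11 in COT minus RAD at 3 h and -0.20 in COT 16 minus 3 h. The genes called between 25 h intact and 20 h in MCE numbered 272, 409 with array weights and 495 without the redone arrays. The touch genes higher at testa rupture in MCE numbered 4, and 2 with only the groups compared or without the redone arrays, and in RAD 1, and 2 with array weights or only the groups compared. The other expansins lower in MCE at 31 h numbered 2, and 4 with array weights or without the redone arrays. Below the dim limit of 4.03, where most EXLA3 values lie, the values rest on dim signal.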
